A study of Homo sapiens with 22 samples.

Results

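Distal chromatin of CHLA10, an established Ewing sarcoma cell line, was sorted by the acetylation of histone H3 at lysine 27 (H3K27ac) and its monomethylation at lysine 4 (H3K4me1). Peaks from the 2 H3K27ac and 2 H3K4me1 libraries of cells labelled shNS were merged wherever they overlapped. The merged regions over 2.5 kb from every protein-coding gene boundary, 59791 in number, were called distal. A mark counted as present with a peak in both of its lists and as absent with a peak in neither. This gave 3 classes with 10920 members: 2149 regions had H3K27ac with H3K4me1, 1741 had H3K4me1 alone and 7030 had H3K27ac alone. Merging all 18 deposited lists of the series gives 258318 regions.

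H3K4me1 is laid down at enhancers by the MLL3 and MLL4 methyltransferases, often before an enhancer is used, and a site with this mark but no acetylation is commonly called primed. H3K27ac, written by p300 and CBP, marks enhancers and promoters in use. In Ewing sarcoma the EWS-FLI1 fusion is known to create enhancers at GGAA repeats and to silence others that belong to a mesenchymal programme. Because a peak list cannot show use or readiness, the classes are named here by their marks.

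The study mapped these marks, H3K4me3, H3K27me3 and the homeobox factor HOXD13 by CUT&RUN, in which an antibody tethers a nuclease that releases short fragments for sequencing. Antibodies were diluted 1:50 for H3K27ac, 1:100 for the other histone marks and 1:20 for HOXD13, on 250000 to 500000 cells per library. Both lines, CHLA10 and A673 (also Ewing sarcoma), contributed 2 libraries per histone mark from shNS cells and 1 HOXD13 library each, whose label lacks shNS. Every group is a single cell line, the labels do not explain shNS, and separate cultures behind the replicates are not stated.

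As a check of the line, genes activated by EWS-FLI1 were looked up within 1 kb of their boundaries. CHLA10 H3K4me3 lay there in both lists at 32 of 34, among them NR0B1, NKX2-2 and STEAP1, against 63.9% of all protein-coding genes. NKX2-2 also had H3K27me3 in both lists and no H3K27ac. Genes that EWS-FLI1 represses had H3K4me3 at 28 of 32, so this count does not separate them from the activated genes. H3K27ac lay in both lists at 8 of 34 activated and 12 of 32 repressed genes, against 17.7% of all protein-coding genes. Housekeeping genes had it at 17 of 29 and cell cycle genes at 9 of 29. The H3K4me3 counts were 0 of 17 for skeletal muscle, 2 of 17 for endothelial, 4 of 20 for epithelial and 6 of 20 for haematopoietic markers. They were 12 of 26 for skeletal and cartilage, 17 of 30 for neuronal and 18 of 25 for neural crest genes. Housekeeping and cell cycle genes had 28 of 29 each, so a high count is not particular to the genes that EWS-FLI1 activates.

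The H3K27ac lists held 39740 and 24293 peaks and the H3K4me1 lists 23432 and 20956, of which 32126, 19592, 21636 and 19245 were distal. The lists give no read counts, so the depth behind a peak is unknown. The H3K4me1 libraries stood apart from each other. Of distal peaks in H3K4me1 replicate 1, 22.9% overlapped replicate 2, while 32.3% overlapped H3K27ac replicate 1 and 31.8% overlapped A673 H3K4me1 replicate 1. H3K4me1 replicate 2 overlapped replicate 1 with 25.4% of its peaks, H3K27ac replicate 1 with 35.6% and A673 H3K4me1 replicate 1 with 35.9%. H3K27ac repeated better, with 71.0% of replicate 2 and 44.5% of replicate 1 found in the other. Absence of H3K4me1 is therefore the least secure part of a class. The class counts, the shares of one mark with the other and 4 differences between classes were recomputed without each library, and other values were not.

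Annotated transcription starts inside the members are shown as examples of sequence in each class. RefSeq (GRCh38.p14) windows from 250 bases before to 50 after a start are printed 5′ to 3′ on the strand of the gene. In 3 of them the capitals mark CpG dinucleotides. The SND1-IT1 start lies in the highest-ranked H3K27ac with H3K4me1 region that holds a start. The DNM3OS start, in the same class, belongs to the host transcript of miR-199a. The LMNA start is an internal one in an H3K27ac alone region. The DNM3OS and LMNA windows were chosen after their values were seen, so they illustrate and do not measure a difference.

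SND1-IT1, chr7:127997259-127997558, plus strand: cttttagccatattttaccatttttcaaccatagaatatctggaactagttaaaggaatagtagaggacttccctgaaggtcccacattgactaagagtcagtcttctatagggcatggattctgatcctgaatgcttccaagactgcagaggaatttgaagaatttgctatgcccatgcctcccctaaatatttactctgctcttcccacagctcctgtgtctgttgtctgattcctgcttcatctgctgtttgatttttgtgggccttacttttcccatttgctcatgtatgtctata
DNM3OS, chr1:172144786-172145085, minus strand: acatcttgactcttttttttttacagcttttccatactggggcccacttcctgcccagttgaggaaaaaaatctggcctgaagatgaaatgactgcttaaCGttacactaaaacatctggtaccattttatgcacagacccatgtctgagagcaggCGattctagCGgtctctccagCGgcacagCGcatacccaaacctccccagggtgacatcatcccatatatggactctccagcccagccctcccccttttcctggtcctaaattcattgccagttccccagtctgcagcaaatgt
LMNA, chr1:156106466-156106765, plus strand: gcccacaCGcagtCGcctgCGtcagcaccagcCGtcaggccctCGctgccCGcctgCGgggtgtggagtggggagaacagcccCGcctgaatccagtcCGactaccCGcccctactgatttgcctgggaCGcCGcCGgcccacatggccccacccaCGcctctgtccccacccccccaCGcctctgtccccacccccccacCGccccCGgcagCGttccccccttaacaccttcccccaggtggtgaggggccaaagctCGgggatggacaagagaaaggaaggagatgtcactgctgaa

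They hold 0, 5 and 19 CpG. The window below is the IFIT3 start in the highest-ranked H3K4me1 alone region with a start, and its capitals mark the letters GAAANNGAAA on either strand, the core of the interferon-stimulated response element.

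IFIT3, chr10:89332279-89332578, plus strand: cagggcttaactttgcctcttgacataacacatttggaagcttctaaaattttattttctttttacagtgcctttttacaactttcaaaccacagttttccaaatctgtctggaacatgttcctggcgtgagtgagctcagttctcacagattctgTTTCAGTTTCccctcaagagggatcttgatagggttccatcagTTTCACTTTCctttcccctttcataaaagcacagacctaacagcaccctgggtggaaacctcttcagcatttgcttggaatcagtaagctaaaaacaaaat

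It holds 2 copies. This motif lay in 2 of 65 windows overlapping H3K27ac with H3K4me1 regions, 1 of 14 at H3K4me1 alone and 19 of 457 at H3K27ac alone, against 3.58% of all 34961 windows. IFIT3 is an antiviral effector induced by interferon.

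Hairpins of 6 annotated microRNAs also lay in members. Their mature sequences from RefSeq are given for one locus per class with the seed (bases 2 to 8) in capitals, and no seed is shared among them.

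hsa-miR-199a-5p, H3K27ac with H3K4me1: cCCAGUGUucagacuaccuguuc
hsa-miR-199a-3p, H3K27ac with H3K4me1: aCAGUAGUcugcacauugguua
hsa-miR-320b, H3K4me1 alone: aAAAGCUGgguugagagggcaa
hsa-miR-1245a, H3K27ac alone: aAGUGAUCuaaaggccuacau

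The miR-199a-2 hairpin sits in a region inside DNM3 (chr1:172140041-172147517). Its authors' −log10 q values were 29.2 and 44.3 for H3K27ac and 6.69 and 8.50 for H3K4me1, and it carried H3K4me3 in both CHLA10 lists. The miR-320b-1 region (chr1:116671790-116672235) had H3K4me1 values of 4.55 and 5.41. The miR-1245a region (chr2:188977123-188980489) lies in COL3A1, a fibrillar collagen gene, and had H3K27ac values of 26.1 and 24.0.

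Acetylation without detected H3K4me1 was the most frequent of the 3 classes in distal CHLA10 chromatin. H3K27ac alone made up 11.8% of distal regions, H3K27ac with H3K4me1 3.59% and H3K4me1 alone 2.91%. Where both marks were called as present or absent, H3K4me1 accompanied 2149 of 9179 acetylated regions (23.4%, exact Clopper-Pearson 95% interval 22.5 to 24.3). H3K27ac accompanied 2149 of 3890 H3K4me1 regions (55.2%, 53.7 to 56.8). Intervals here and below cover counting error only.

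Most distal regions were unresolved: 21391 rested on 1 H3K4me1 list and 17664 on 1 H3K27ac list. Among regions with H3K27ac in both lists, 4307 had H3K4me1 in 1 list only. Among regions with H3K4me1 in both, 1206 had H3K27ac in 1 list only. With presence in at least 1 replicate the classes grew to 11965, 23132 and 24694 regions, in the order above. H3K4me1 then accompanied 32.6% of acetylated regions and H3K27ac 34.1% of H3K4me1 regions. Leaving out a library also moved these shares. Presence and absence of its mark then rest on 1 list, so the shift does not show what that library alone contributes. H3K4me1 accompanied 12.4% of acetylated regions without H3K27ac replicate 2 and 16.5% without replicate 1. H3K27ac accompanied 26.9% of H3K4me1 regions without H3K4me1 replicate 1 and 24.2% without replicate 2. H3K27ac alone nevertheless outnumbered H3K27ac with H3K4me1 without each of the 4 libraries, whereas H3K4me1 alone outnumbered H3K27ac alone without either H3K4me1 replicate (11455 against 9247 and 13629 against 9114). With 2 libraries against 2, no exact permutation p below 0.33 is possible, so shares are compared through their intervals and through the spread between libraries.

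**Figure D1:**
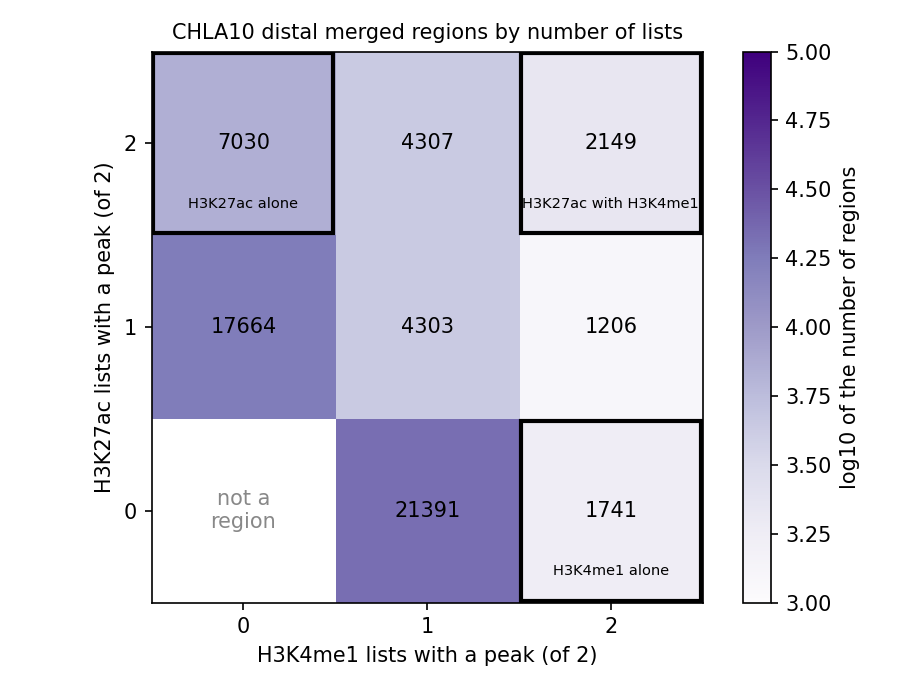
CHLA10 distal merged regions by the number of H3K27ac lists (vertical axis, 0 to 2) and H3K4me1 lists (horizontal axis, 0 to 2) with a peak. Printed numbers are regions, colour is the log10 of that number, and black frames mark the 3 classes of 2149, 1741 and 7030 regions.

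The classes differed in width and peak strength. Median widths were 1470 bp for H3K27ac with H3K4me1, 619 bp for H3K4me1 alone and 1121 bp for H3K27ac alone, against 427 bp for all distal regions. At regions with both marks the median authors' −log10 q was 9.75 and 8.02 in the H3K27ac lists, and at H3K27ac alone it was 8.08 and 7.02. The H3K4me1 medians were 5.96 and 5.41 with H3K27ac, and 4.58 and 4.53 alone. Each mark thus had the higher median in both of its lists where the other was present. Width and strength come from the same 4 lists that define the classes. A region joined from more peaks is wider, and the strongest peak in it is taken. These orders therefore follow in part from the rule. Most distal regions rest on 1 list, with median widths of 291 bp (H3K4me1) and 300 bp (H3K27ac). A wider or stronger region has more chance of a peak in another list. For the acetylated classes, shares of HOXD13, H3K4me3, A673 H3K4me1 and A673 H3K4me3 are therefore also given by width. Other shares were not compared by width. H3K4me1 alone, the narrowest class, was not compared by width either, so its low shares may reflect width in part, which was not tested.

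Because peaks were merged where they overlapped, every region with both marks has bases under both by construction. H3K27ac covered a median of 97.3% of the region, H3K4me1 70.7% and both together 58.0%. H3K4me1 reached past the acetylated stretch in 1223 regions (56.9%), and H3K27ac reached past H3K4me1 in 1914 (89.1%). Regions with H3K4me1 alone lay a median of 15.7 kb from the nearest H3K27ac peak, and 21.4% were within 5 kb of one. Of H3K27ac alone regions, 21.1% had another of their class within 12.5 kb, against 4.23% for H3K27ac with H3K4me1 and 2.70% for H3K4me1 alone. The latter classes have fewer members, which lowers the share by itself, and the part of class size was not tested.

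Distance and gene context differed little. The median distance to a protein-coding boundary was 41.6 kb for H3K27ac with H3K4me1, 55.0 kb for H3K4me1 alone and 49.3 kb for H3K27ac alone, against 49.9 kb overall. Inside protein-coding genes lay 53.1%, 50.0% and 51.0% of the classes in that order, near the 51.8% of all distal regions.

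The strongest regions with both marks were assigned to GAB2, MED15 and ABL1. Regions were ranked by the mean percentile of −log10 q over the lists that define a class. The leading region (chr11:78378943-78383100) is in GAB2, an adaptor of growth factor receptors, with −log10 q of 30.1 and 36.1 for H3K27ac and 15.7 and 12.1 for H3K4me1. In ABL1, a tyrosine kinase gene, the region at chr9:130823328-130826144 had 36.4 and 37.4 for H3K27ac and 14.3 and 11.7 for H3K4me1. A region 50.2 kb from TLN2, which links integrins to actin (chr15:62894866-62897623), had 33.5 and 37.1, and 13.0 and 11.8. ITPKB, an inositol phosphate kinase gene, held the highest value of the H3K4me1 replicate 2 list, 20.0 (chr1:226653590-226655497). The others of the leading 10 were assigned to MED15 (a Mediator subunit), SLC6A17, SFXN1, WDFY3, MYOM1 and LMNA (lamin A/C). In A673, H3K4me1 was present in both lists at 9 of the 10, all except WDFY3, against 46.1% of the class and 19.6% of all distal regions.

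The leading H3K4me1 alone regions were at other genes. TIPARP, an ADP-ribosyltransferase gene, held the strongest (chr3:156685127-156686632), with H3K4me1 values of 24.7 and 19.3. CDC42BPA, a kinase acting on the cytoskeleton (chr1:227212915-227213832), had 20.8 and 12.2. CFTR, which encodes a chloride channel (chr7:117550652-117551668), had 19.9 and 10.0. The list continued with MLIP, SMIM20, TIAM2, DLG2, SWT1, IFI44L and FREM3. None of the 10 had H3K27ac in either A673 list, against 15.3% of the class and 19.5% of all distal regions. None had H3K4me3 in either CHLA10 list, against 6.32% of the class and 11.8% of all distal regions. TIPARP, MLIP and TIAM2 had H3K4me1 in both A673 lists, against 383 of 1741 regions of the class and 19.6% of all distal regions. With only 10 regions, these counts do not set the leading regions apart from their class. IFI44L is, like IFIT3, induced by interferon. Among 40 interferon-stimulated genes listed after these 2 were seen, 1 had a region with both marks, 2 had H3K4me1 alone and 4 had H3K27ac alone, shares no higher than those of all genes given further on.

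KIRREL1, a cell adhesion gene, held the leading H3K27ac alone region (chr1:158013067-158021758), 8692 bp wide, with H3K27ac values of 49.9 and 60.2. TXNRD2, a mitochondrial thioredoxin reductase (chr22:19879699-19882650), had 59.8 and 45.7. TGFBR2, the type II TGF-beta receptor (chr3:30657348-30660424), had 42.3 and 36.5. TPRG1, SLC38A6, AFF1, NUMA1, SZRD1, ADGB and NOTCH2NLC completed the 10, and reads at NOTCH2NLC could belong to its near-identical relatives. H3K4me3 lay in both CHLA10 lists at 9 of the 10, all except SLC38A6, against 20.3% of the class and 6.54% of all distal regions. H3K27ac lay in both A673 lists at 9, all except TPRG1, against 17.5% of the class and 6.81% of all distal regions.

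H3K4me3, the mark of promoters, was frequent at both acetylated classes and rare at H3K4me1 alone. At H3K27ac with H3K4me1 it was found at 497 regions (23.1%) in replicate 1 and 482 (22.4%) in replicate 2. At H3K4me1 alone it was found at 71 (4.08%) and 85 (4.88%). At H3K27ac alone it was found at 1842 (26.2%) and 1810 (25.7%), while 9.16% and 9.15% of all distal regions overlapped these lists. The means were 22.8% ± 0.494, 4.48% ± 0.569 and 26.0% ± 0.322 in that order (SD, n = 2 libraries). The difference between both marks and H3K27ac alone, -3.20 percentage points, was small. It was 2.22 without H3K27ac replicate 1 and 4.33 without replicate 2, 2.18 with presence in at least 1 replicate of each mark, and -0.360 with all annotated genes as boundaries, so no direction can be given for the whole classes. Within 4 bands of width, up to 780, 1215, 1824 and 8921 bp, the H3K4me3 means were 9.55%, 12.7%, 20.9% and 36.9% with both marks, against 14.9%, 20.2%, 29.1% and 43.6% with H3K27ac alone. Bands were not recomputed without a library.

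Annotated starts of any gene type separated the acetylated classes more. Such a start window overlapped 60 regions with both marks (2.79%), 13 with H3K4me1 alone (0.747%) and 363 with H3K27ac alone (5.16%), against 1.77% of all distal regions. Where a start was present, H3K4me3 lay in both lists at 269 of 363 H3K27ac alone regions (74.1%, 69.3 to 78.5) and at 16 of 60 with both marks (26.7%, 16.1 to 39.7). These intervals do not overlap. Without a start the shares were 14.2% for both marks and 17.4% for H3K27ac alone.

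Start windows in the classes also differed in base content, while single windows varied widely: 2 windows of CBX5, a heterochromatin protein gene, in the highest-ranked H3K27ac alone region with a start, hold 6 and 4 CpG. The median window held 3 CpG at H3K27ac with H3K4me1, 3 at H3K4me1 alone and 12 at H3K27ac alone, against 6 at all distal regions and 14 over all windows. Long non-coding RNA starts made up 67.7%, 71.4% and 48.8% of the windows in that order. The AP-1 motif TGANTCA, which reads alike on both strands, occurred in 16 of 65 windows with both marks (24.6%, 14.8 to 36.9). It occurred in 4 of 14 with H3K4me1 alone and in 61 of 457 with H3K27ac alone (13.3%, 10.4 to 16.8), against 17.6% at all distal regions and 7.68% of all windows. The intervals of the acetylated classes overlap, and a match does not show binding.

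HOXD13, a posterior homeobox factor, was found mostly at acetylated regions, with the higher share where H3K4me1 was absent. Its single CHLA10 list overlapped 73 regions with both marks (3.40%, 2.67 to 4.25), 8 with H3K4me1 alone (0.460%, 0.199 to 0.903) and 518 with H3K27ac alone (7.37%, 6.77 to 8.0). Of all distal regions 1.96% overlapped it. The difference between both marks and H3K27ac alone was -3.97 percentage points (Newcombe 95% interval -4.91 to -2.94). Along the number of H3K4me1 lists, 0, 1 and 2, at regions with H3K27ac in both, the share was 7.37%, 5.08% and 3.40%.

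The order was also seen among wider regions. In the narrowest of the width bands the HOXD13 shares were 3.37% for both marks and 3.78% for H3K27ac alone, with overlapping intervals. In the next bands they were 2.13% and 6.07%, then 3.23% and 7.34%. In the widest they were 4.65% (3.18 to 6.54) and 13.5% (11.8 to 15.2). Within the central 500 bp the shares were 2.42% and 4.48%. Where neither H3K4me3 list had a peak they were 3.17% and 7.70%. The size does depend on the lists used. Leaving out any 1 of the 4 libraries, which lets 1 list decide its mark, gave differences of -2.81 to -0.590. The difference was -1.99 without H3K27ac replicate 1 and -0.59 without H3K27ac replicate 2. It was -0.0980 with presence in at least 1 replicate of each mark, where its interval (-0.464 to 0.284) includes 0.

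HOXD13 peak strength did not separate the classes, with median −log10 q of 30.1 at the 73 regions with both marks, 25.6 at the 8 with H3K4me1 alone and 26.0 at the 518 with H3K27ac alone. The regions below were picked by HOXD13 −log10 q after the values were seen. The strongest was in CRB1 (chr1:197249784-197250961), a polarity gene of the retina, in the H3K27ac alone class with a HOXD13 value of 313 but H3K27ac values of only 5.17 and 5.31. In the class with both marks the strongest was in TTC3 (chr21:37152584-37154190), a ubiquitin ligase gene, with a HOXD13 value of 120.2. ZNRF3, a negative regulator of WNT receptors (chr22:28903761-28905024), had 69.6. A673 HOXD13 was also present at 18 of the 73 regions with both marks (24.7%), 0 of the 8 with H3K4me1 alone and 140 of the 518 with H3K27ac alone (27%). Of the whole classes, A673 HOXD13 lay at 8.66%, 2.30% and 9.74% in that order, and at 3.71% of all distal regions. The 8 regions are too few for a comparison.

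H3K27me3, the Polycomb mark, was nearly absent from acetylated regions. At H3K27ac with H3K4me1 the 2 lists gave 0 and 2 of 2149 regions (3 counts of the total, the limit taken for a count of 0, are 0.140%, the exact upper bound is 0.172%, and 2 regions are 0.0931%). At H3K4me1 alone they gave 18 (1.03%) and 13 (0.747%) of 1741, and at H3K27ac alone 4 (0.0569%) and 11 (0.156%) of 7030. All distal regions gave 0.885% and 0.905%. H3K4me1 alone was thus at the level of all distal regions, and 9 of its regions had H3K27me3 in both lists. The difference between both marks and H3K4me1 alone, -0.844 percentage points, was -1.59 without H3K4me1 replicate 1 and -1.86 without replicate 2.

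**Figure D2:**
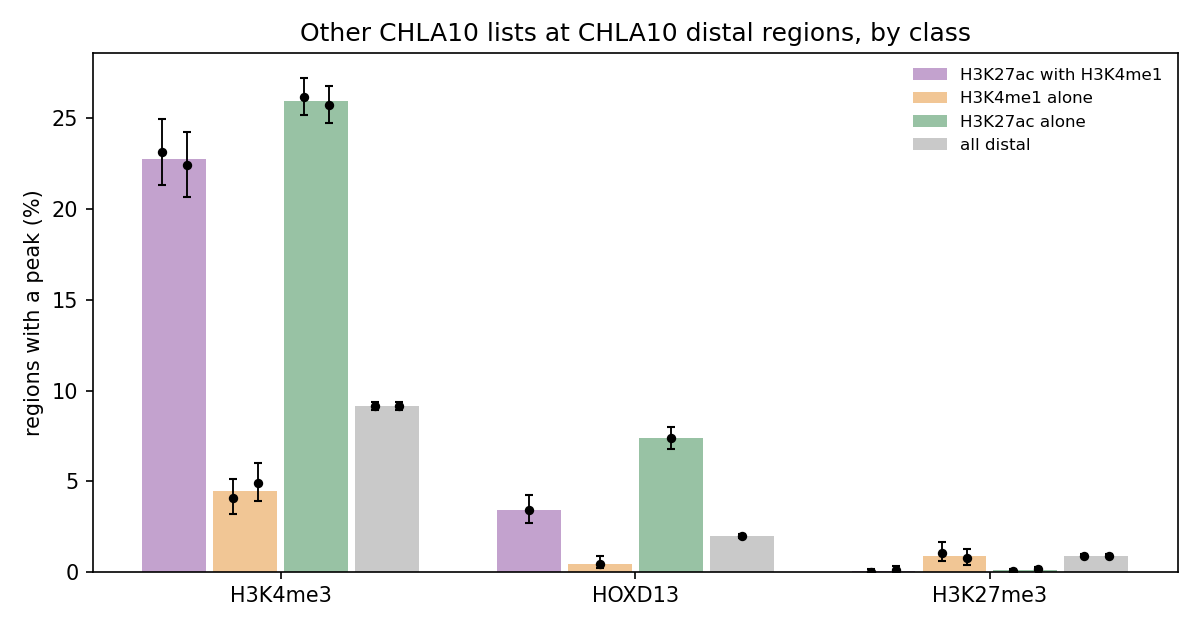
Share of CHLA10 distal regions (vertical axis, percent) that overlap a peak of 3 other CHLA10 targets, for the 3 classes and for all distal regions. Bars are means over libraries, points are single libraries (2 for the histone marks, 1 for HOXD13) and whiskers are 95% intervals for counting error. H3K4me3 is at 22.8% and 26.0% of the acetylated classes, and HOXD13 is at 3.40% with both marks and 7.37% with H3K27ac alone.

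Regions that carried both marks in CHLA10 were also those most often marked in A673. A673 H3K4me1 replicates 1 and 2 lay at 63.7% and 52.9% of them, at 38.1% and 28.6% of H3K4me1 alone and at 50.0% and 36.8% of H3K27ac alone, against 33.4% and 25.1% of all distal regions. Both A673 libraries gave the same order, although the longer list gave higher shares. The gap between both marks and H3K27ac alone was 13.7 and 16.1 percentage points in the 2 libraries and was present in each width band, from 40.2% and 31.1% in the narrowest to 73.7% and 61.7% in the widest (means of the 2 lists). Averaged over both A673 lists it was 14.9 points, and 23.5 without CHLA10 H3K27ac replicate 2 and 9.69 without CHLA10 H3K4me1 replicate 1.

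A673 H3K27ac followed the CHLA10 acetylation. Replicates 1 and 2 lay at 34.2% and 30.4% of regions with both marks, at 10.4% and 8.21% of H3K4me1 alone and at 28.6% and 26.1% of H3K27ac alone, against 14.1% and 12.3% of all distal regions. All 4 A673 lists of the 2 marks met at 387 of 2149 regions with both marks, 2.47% of H3K4me1 alone and 11.1% of H3K27ac alone, against 4.72% overall. CHLA10 H3K27ac alone regions had H3K4me1 in both A673 lists with no A673 H3K27ac at 10.7%, and regions with both marks at 14.1%, against 9.20% overall. No A673 histone peak was present at 24.7%, 47.7% and 32.0% of the classes, against 52.1% overall. H3K4me1 alone thus lay nearest to all distal regions in this share. A673 H3K27ac in both lists with no A673 H3K4me1 was found at 0.605% of regions with both marks (0.322 to 1.03), 0.0574% of H3K4me1 alone and 2.39% of H3K27ac alone (2.05 to 2.77), against 0.717% overall.

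A673 H3K4me3 was more frequent at H3K27ac alone, while A673 HOXD13 shares had overlapping intervals in the acetylated classes. A673 H3K4me3 replicates 1 and 2 lay at 4.19% and 4.79% of regions with both marks, 2.30% and 2.24% of H3K4me1 alone and 11.7% and 11.8% of H3K27ac alone, against 4.15% and 4.14%. In the width bands, narrowest to widest, the A673 H3K4me3 means were 1.69%, 2.31%, 3.37% and 8.33% for both marks and 9.01%, 9.97%, 13.4% and 15.6% for H3K27ac alone. At regions with both marks the A673 share was near that of all distal regions, while the CHLA10 share was 22.8%. A673 HOXD13 lay at 186 regions with both marks (8.66%, 7.50 to 9.92), 40 with H3K4me1 alone (2.30%) and 685 with H3K27ac alone (9.74%, 9.06 to 10.5), against 3.71%. A673 H3K27me3 lay at 0.884% and 1.49% with both marks, 4.19% and 5.11% of H3K4me1 alone and 1.12% and 1.58% of H3K27ac alone, against 2.55% and 3.44%.

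**Figure D3:**
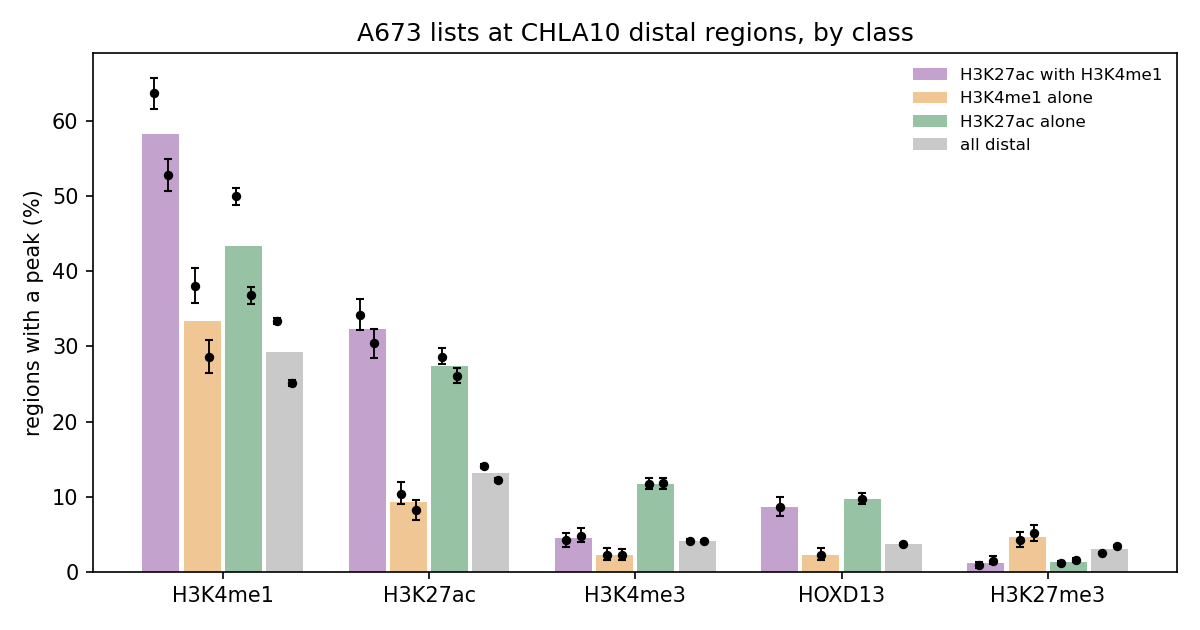
Share of CHLA10 distal regions (vertical axis, percent) that overlap a peak of A673, by target and CHLA10 class. Bars are means, points are single libraries (2 for the histone marks, 1 for HOXD13) and whiskers are 95% intervals for counting error. A673 H3K4me1 lies highest at regions with both marks (58.3% mean), and A673 H3K4me3 at H3K27ac alone (11.8% mean).

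The balance of the marks differed between the lines. Classed by the same rule from its own lists, CHLA10 had H3K4me1 at 23.4% of acetylated regions, against 71.6% in A673. H3K27ac accompanied 55.2% of H3K4me1 regions in CHLA10, against 26.7% in A673. The CHLA10 H3K4me1 lists held 23432 and 20956 peaks, and the A673 lists 106770 and 43083, so the length of the H3K4me1 lists moves with both shares and its part was not tested. In the A673 classes, A673 H3K4me3 replicates 1 and 2 lay at 13.6% and 14.1% of regions with both marks and 7.98% and 7.59% of H3K27ac alone, against 2.41% and 2.43% of all A673 distal regions. A673 HOXD13 lay at 15.6% and 4.16% of these classes, against 2.15%.

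Genes were next assigned to regions: the gene body that holds the centre of the region, otherwise the nearest boundary within 100 kb. A region with both marks was assigned to 7.50% of protein-coding genes (1497), one with H3K4me1 alone to 5.86% (1171) and one with H3K27ac alone to 16.6% (3321). These genes are long, with median lengths of 101, 121 and 84.8 kb in that order, against 24.2 kb for all genes. List counts below are descriptions beside those shares, and a gene named under one class may also hold regions of another, since genes are named by their strongest region of each class.

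Genes that EWS-FLI1 is known to repress, mostly of mesenchymal cells, had acetylated regions in a large share of members. Of 32 such genes, 10 had a region with both marks (31.3%), 2 had H3K4me1 alone and 17 had H3K27ac alone (53.1%), and their median length was 14.4 kb, below that of all genes. With only the nearest boundary within 50 kb used, the counts were 10, 3 and 15. TGFBR2 carried, beside the region above, one with both marks (chr3:30688119-30690316) with −log10 q of 31.9 and 21.2 for H3K27ac and 11.4 and 10.5 for H3K4me1. TNC, a matrix glycoprotein gene (chr9:115103901-115107401), had 18.1 and 16.2, and 11.02 and 10.8. COL1A2, a collagen I gene, had a region 45.5 kb away (chr7:94344553-94349440) with 26.5 and 21.99, and 8.76 and 7.34. TPM1, tropomyosin, was the next gene with both marks. In the H3K27ac alone class COL5A2, COL3A1 and ANXA1 followed TGFBR2.

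Other lists with many mesenchymal genes were counted in the same way. Of 50 mesenchymal and matrix genes 11, 5 and 26 had a region of the classes in the usual order, among them the collagen gene COL5A1 and the cadherin CDH11 (both marks), and the collagen crosslinker LOXL2 and fibrillin-1 gene FBN1 (H3K27ac alone). The transcription factor gene PRRX1 had 2, 1 and 2 regions of the classes and the collagen gene COL6A3 had 1, 1 and 3. Of 32 actin and focal adhesion genes the counts were 9, 4 and 20, but their median length was 152 kb and with the 50 kb rule they were 3, 1 and 16. VCL (vinculin), ITGA1 (an integrin), LPP and ACTN4 (an actinin) led with both marks and MYH9 (non-muscle myosin) led H3K27ac alone with values of 32.7 and 41.3. Of 26 AP-1 and YAP-TEAD genes the counts were 6, 2 and 11, with AMOTL1, ANKRD1, AXL and CCN1 carrying both marks, ATF3 H3K4me1 alone, and TEAD1, FOS and FOSB H3K27ac alone.

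TGF-beta and BMP genes had 10, 4 and 13 of 39 members with a region. SMAD6 and SMAD7, inhibitors of the pathway, carried both marks, with H3K27ac values of 33.1 and 19.1 at SMAD6 and 18.05 and 25.9 at SMAD7. The ligand TGFB2 carried both marks, and the receptor BMPR1A carried H3K27ac alone. SMAD2, a signal transducer, and the antagonist NOG had regions with H3K4me1 alone and none of the other classes. SMAD3 had 1 region with both marks, 1 with H3K4me1 alone and 4 with H3K27ac alone, and the receptor BMPR1B had 0, 1 and 2. The WNT list had 8, 9 and 15 of 47. Its receptors FZD1, FZD2, LRP6 and ROR2 carried both marks, and WNT2, TCF7L2 and ROR1 carried H3K27ac alone. LGR6, the ligand WNT3 and RSPO3 (which also had 1 H3K27ac alone region) carried H3K4me1 alone. The LGR6 region also overlapped H3K27me3 in both CHLA10 lists.

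Genes that EWS-FLI1 activates gave 6, 2 and 12 of 34, and core Ewing transcription factors 4, 2 and 8 of 20. CCND1, cyclin D1, had a region with both marks 25.3 kb away (chr11:69614265-69615833) with 16.1 and 11.9 for H3K27ac and 18.9 and 8.33 for H3K4me1, and no A673 list of these marks had a peak there. CAV1, JAK1 and MYC also carried both marks, KIT and VRK1 carried H3K4me1 alone, and PRKCB and CD99 carried H3K27ac alone. SOX6, TCF4, MEIS1 and ETV6 led the core factors with both marks. NR0B1, a direct target at a GGAA repeat, had a region in none of the classes. The distal rule leaves out regions close to a protein-coding boundary, so the classes cannot show whether an element close to NR0B1 is marked. Within 1 kb of its boundaries, NR0B1 had H3K27ac and H3K4me3 in both CHLA10 lists of each mark.

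Developmental and lineage lists were mixed. Of 50 HOX genes and cofactors 2, 4 and 7 had a region, close to the shares of all genes. MEIS1, a homeobox cofactor gene, carried both marks, and HOXC11 and HOXD8 carried H3K27ac alone. PKNOX2 and HOXB3 had regions with H3K4me1 alone and none of the other classes, while MEIS2 also had 2 with H3K27ac alone and PBX3 had 1. Neural crest genes gave 3, 4 and 8 of 25, neuronal genes 5, 5 and 12 of 30, and skeletal and cartilage genes 2, 5 and 5 of 26. Markers of other cells gave 2, 2 and 5 of 17 (endothelial), 1, 2 and 6 of 20 (epithelial), 2, 1 and 3 of 20 (haematopoietic) and 1, 1 and 1 of 17 (skeletal muscle, NEB each time). Cell cycle genes gave 2, 2 and 4 of 29 and housekeeping genes 2, 0 and 1 of 30.

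**Figure D4:**
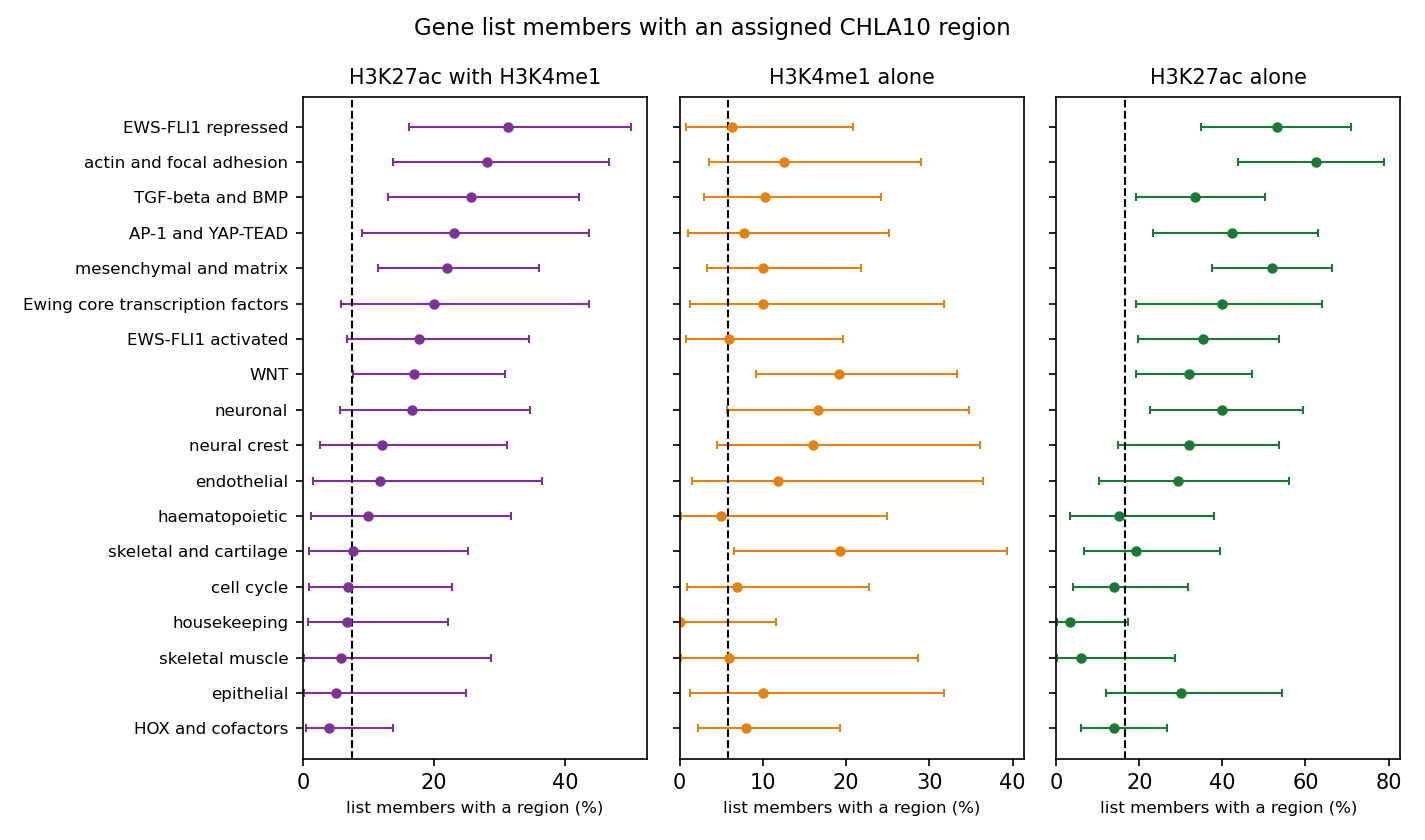
Share of members of 18 gene lists (horizontal axes, percent) with an assigned CHLA10 region of each class, with 95% intervals for counting error. Dashed lines give the share of all protein-coding genes (7.50%, 5.86% and 16.6%). Genes repressed by EWS-FLI1 stand at 31.3% with both marks and 53.1% with H3K27ac alone.

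Some genes held many members, and these were picked after their values were seen. RERE, a transcriptional corepressor gene, held 15 H3K27ac alone regions, COL5A2 14 and FOXP1 13, with 2, 1 and 2 regions of both marks. SRGAP2, a gene of neuronal morphology with near-identical copies elsewhere, held 6 regions with both marks and none of the other classes. RABGAP1L held 7 H3K4me1 alone regions, 2 with H3K27ac alone and none with both marks. These genes are long, which gives room for more regions. RABGAP1L spans 836 kb, FOXP1 629 kb, RERE 465 kb, COL5A2 409 kb and SRGAP2 261 kb, against a median of 24.2 kb for all genes.

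The share of acetylated regions with H3K4me1 varied along the genome in CHLA10. Over regions with H3K27ac in both lists, H3K4me1 replicates 1 and 2 had a peak at 32.5% and 31.3%. On chromosome 11 the shares were 42.7% (39.0 to 46.4) and 40.3% (36.6 to 44.0), and on chromosome 1 they were 38.0% (35.5 to 40.6) and 39.0% (36.5 to 41.6). On chromosome X they were 22.1% and 23.5%. On chromosome 13 they were 13.1% (8.82 to 18.5) and 10.7% (6.81 to 15.7), the lowest in both libraries, and 4 of 165 classed acetylated regions there had both marks (2.42%). Both libraries placed chromosomes 1 and 11 above, and 13 and X below, all chromosomes together.

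In A673 the same measure was 72.3% and 61.9% over all chromosomes, 72.4% and 64.0% on chromosome 11 and 70.1% and 62.8% on chromosome 1. On chromosome 13 it was 67.1% (59.5 to 74.0) and 55.5% (47.8 to 63.0), and both intervals include the share of all chromosomes. Chromosome X was low in A673 too, with 60.3% and 46.6%. The difference between the lines by chromosome was not tested.

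The variation in CHLA10 followed parts of chromosomes. In bins of 25 Mb, 38.1% to 40.4% of classed acetylated regions had H3K4me1 from 150 Mb to the end of chromosome 1, against 16.1% to 29.8% in the bins before it. On chromosome 11 the share was 19.4% in the bin from 0 to 25 Mb, 48.2% from 75 to 100 Mb and 55.6% from 125 Mb on. It was 2.38% (1 of 42) from 0 to 25 Mb on chromosome 9 and 3.08% (2 of 65) from 0 to 25 Mb on chromosome 10. On chromosome 16 it was 27.1% from 0 to 25 Mb, 6.98% from 50 to 75 Mb and 3.70% from 75 Mb on. H3K4me1 alone regions numbered 40, 41, 27 and 26 in the last 4 bins of chromosome 1, against 4 to 19 in the bins before. They made up 3.74% of distal regions on chromosome 1 and 0.824% (10 regions) on chromosome 13, against 2.91% of all distal regions. Chromosome 8 from 125 Mb went the other way. There 33 of 88 acetylated regions had H3K4me1 (37.5%), with 6 H3K4me1 alone regions, against 12 to 22 in the other bins of that chromosome. DNA copy number was not analysed here, and its part was not tested. Without chromosomes 1, 11 and 13, a choice made after these values were seen, 21.9% of acetylated regions had H3K4me1.

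**Figure D5:**
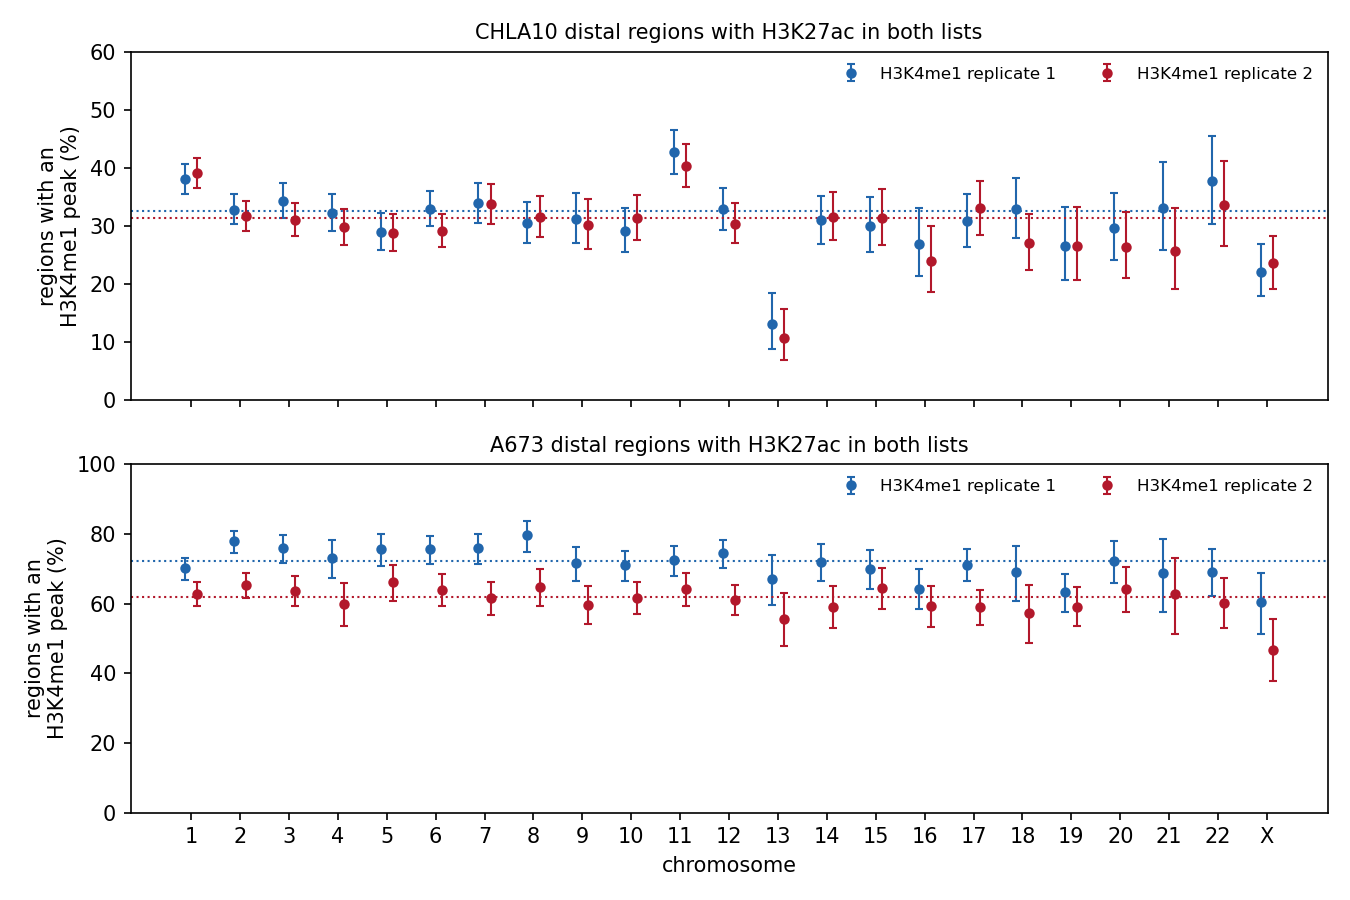
Share of distal regions with H3K27ac in both lists (vertical axes, percent) that have an H3K4me1 peak, by chromosome and H3K4me1 library, in CHLA10 (top) and A673 (bottom). Whiskers are 95% intervals for counting error and dotted lines the share over all chromosomes. Both CHLA10 libraries are lowest on chromosome 13 (13.1% and 10.7%) and highest on chromosome 11 (42.7% and 40.3%).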

How the data were processed

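The authors deposited 18 peak lists, 1 per library, called per sample and not on pooled replicates. The 4 IgG libraries entered no comparison. Per the submitters' processing notes the tools were Bowtie2, MACS2, SEACR 1.2 and bedtools and the build was hg38, and no role is given for any of them. Each deposited list gives, per peak, a score, a fold enrichment (a ratio over the caller's background) and −log10 p and −log10 q values. These are the authors' values. The −log10 q values were used to rank peaks within a list, are printed for named regions and are summarised as medians by class. Peak numbers have gaps: the 4 lists kept 43.9%, 36.9% (H3K27ac), 34.1% and 20.3% (H3K4me1) of the highest number, by a criterion not given in the sources used here.

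Peaks on chromosomes 1 to 22 and X were merged at 1 bp of overlap in Python 3.11.15 with pandas 2.3.3, scipy 1.17.1 and RefSeq boundaries of 19970 protein-coding genes. Classing was tested on simulated data. Shares have exact 95% intervals, with mean ± SD over libraries. The alternatives merged peaks within 500 bp, required 25% cover, kept the upper 50% of each list, used equal list lengths or a distance of 10 kb, took all genes as boundaries, relaxed presence, dropped H3K4me3 regions or left out a library. The central 500 bp, the width bands, the interferon list and the chromosome omission were added after seeing the data. The classes and the 18 lists of 507 genes were chosen with earlier results of these data known. Text names the 10 leading regions per class and up to 4 list members by the same rank. Base content of regions needs a genome and was not analysed here. Some named results are not reported here.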

Additional observations from a re-analysis of the deposited data

Results flagged for a closer look

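As classed from each line's own lists, the share with both marks minus that with H3K27ac alone had opposite signs in CHLA10 and A673, and the difference between the lines was not tested. For H3K4me3 the difference was -3.20 percentage points in CHLA10 (-3.07 and -3.32 in the 2 libraries) and 6.09 in A673 (5.64 and 6.53). In A673, 13.9% ± 0.358 of regions with both marks and 7.79% ± 0.274 of H3K27ac alone regions had H3K4me3 (SD, n = 2), against 2.41% and 2.43% of all A673 distal regions. For HOXD13, with 1 library per line, the difference was -3.97 in CHLA10 and 11.4 in A673 (Newcombe 95% interval 9.98 to 12.8). A673 HOXD13 lay at 707 of 4537 A673 regions with both marks (15.6%) and 75 of 1804 with H3K27ac alone (4.16%), against 2.15% of all A673 distal regions. No direction can be given for the CHLA10 H3K4me3 difference, which changed sign without either H3K27ac replicate and with presence in at least 1 replicate, so the opposite signs hold for the classes as defined.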

How the results depend on the processing

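No paired analysis was possible because the results are overlaps of peak lists and come from no test. Leaving out 1 of the 4 libraries at a time also let 1 list decide presence and absence of its mark. It gave 2340 to 4347 regions with both marks, 2027 to 13629 with H3K4me1 alone and 9114 to 21351 with H3K27ac alone. The share of H3K4me1 regions with H3K27ac was then 24.2% to 59.8%, and that of H3K27ac regions with H3K4me1 12.4% to 32.3%. The differences between classes were -4.33 to 4.33 (H3K4me3), -1.86 to -0.574 (H3K27me3), -2.81 to -0.590 (HOXD13) and 9.69 to 23.5 (A673 H3K4me1) percentage points. With presence in at least 1 replicate the counts were 11965, 23132 and 24694, the shares 34.1% and 32.6%, and the differences 2.18, -1.78, -0.0980 and 18.1 in the same order. With the upper 50% of each list they were 699, 836 and 4267, 45.5% and 14.1%, and -1.73, -0.478 and -5.25 for H3K4me3, H3K27me3 and HOXD13. Requiring 25% cover gave 1406 regions with both marks, 43.8% and 14.9%, and differences of -5.37 (H3K4me3) and 10.1 (A673 H3K4me1). Lists of equal length gave 42.9% and 25.2%, -5.23 (H3K4me3) and -0.552 (H3K27me3). The H3K4me3 difference was -4.19 with peaks within 500 bp merged, -1.73 beyond 10 kb, -0.360 with all annotated genes as boundaries and -4.35 in the central 500 bp, where HOXD13 gave -2.06. Merging within 500 bp gave 26.2% of H3K27ac regions with H3K4me1, and leaving out chromosomes 1, 11 and 13 gave 21.9%. Without H3K4me3 regions, 47.6% of H3K4me1 regions had H3K27ac and the A673 H3K4me1 difference was 13.0. The H3K27me3, HOXD13 and A673 H3K4me1 differences kept their sign in all 14 alternatives run for each, but with presence in at least 1 replicate the HOXD13 interval (-0.464 to 0.284) includes 0. The 30 named regions kept their class in 30 cases under 8 of 13 alternatives, and in 17 when H3K4me3 regions were left out, with 1 of 10 left for H3K27ac alone. Leaving out a library or relaxing presence could hardly change these classes, because a named region has every peak its class requires. The upper 50% and equal lengths kept the strongest peaks, by which the named regions were picked. These settings therefore do not test the named classes. Of 54 counts by list and class, 26 moved by over 1.5 times with the 50 kb rule. Causes were not tested, except that shorter lists and stricter presence leave fewer regions by construction. Unknown read depth limits every absence.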
